A study of Mus musculus with 3 samples.

Results

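The ABC transporters and the organic anion transporters of the Slco family were measured in endothelial cells of the adult mouse renal medulla. Members were chosen by name alone, as the genes whose symbol joins Abc with a subfamily letter from a to g and a number, or Slco with its subfamily code. This gave 63 genes of 19938, made up of 48 ABC genes and 15 Slco genes. They were read by 64 probe sets, and each gene was represented by its probe set with the highest mean.

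ABC proteins use ATP to move lipids, conjugates, drugs and peptides across membranes, mostly outward, although the E and F subfamilies lack membrane spans and act in translation. Slco proteins, also called OATPs, carry bile salts, steroid conjugates, thyroid hormones and prostaglandins, mostly into cells. In brain capillaries Abcb1a (P-glycoprotein), Abcg2 (BCRP), Abcc4 and Slco1a4 are known for controlling passage of drugs and anions across the endothelium, and in the kidney other members of both families are known from the tubules.

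The samples came from adult male FVB/N mice carrying Tg(TIE2GFP)287Sato, in which the Tie2 promoter, active in endothelium, drives green fluorescent protein. Medullae were digested with collagenase A, GFP-positive cells were purified by FACS, and RNA of 3 samples, each a pool of 2 kidneys, was hybridised to Affymetrix Mouse Gene 1.0 ST arrays. All 3 arrays form 1 group with no control, so levels were set against limits and not against another tissue, and no fold between compartments is given. Levels are log2 expression values, and a unit is the same value on the linear scale. Because probes differ in affinity, no order of level between genes is given, and since whole sorted populations were measured, a lower level can mean fewer cells with a transcript or less of it per cell, which cannot be told apart.

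All 12 of 12 endothelial markers were called above the background limit described below. Of the markers of other cells, 4 of 6 for the thick ascending limb, 4 of 8 for collecting duct, 2 of 10 for proximal tubule, 1 of 5 for lymphocytes, 3 of 6 for red cells and platelets, and 0 of 7 for pericytes and smooth muscle and 0 of 8 for myeloid cells were so called. In these last lists 4 and 3 markers were called on neither side, and 1 and 2 read at or over the limit in all arrays. Of all genes, 49.7% were called above the limit. Some marker counts fell when genes with the same value in every array were given the typical variance of the array set. They were then 2 of 6 for the thick ascending limb, 3 of 8 for collecting duct and 2 of 6 for red cells and platelets. Mean levels in replicates 1, 2 and 3 were 12.12, 11.90 and 11.91 for endothelial markers and 8.93, 8.50 and 8.31 for thick ascending limb markers, so that replicate 1 was highest in both. Umod, the uromodulin gene of that tubule segment, read 11.61, 10.40 and 9.49, and Slc12a1 read 9.68, 8.07 and 7.81. Cldn16 of the same list was lowest in replicate 1 (7.065, 7.337 and 7.337). Kcnj1, Cldn19 and Ptger3 had the same value in every array. Proximal tubule markers were flat at 7.12, 7.13 and 7.13.

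Levels were compared with 2 limits. The lower was 100 units (log2 6.64), after the level the study used as its filter. The higher, called the background limit, was log2 7.95 (246.8 units), the 95th percentile of 1245 probe sets for odorant, vomeronasal and bitter taste receptors, genes not known from endothelium. A gene below it was not shown to be silent. Of these receptor probe sets, 34.8% still read at least 100 units in all arrays, so the lower limit separates little. Calls are from limma, two-sided and Benjamini-Hochberg adjusted over all genes.

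Of the 63 members, 26 (41.3%) were called above the background limit, against 49.7% of all genes, and 34 were called below it, where 38.0% of all genes fell. Above 100 units were 45 members (71.4%), against 83.0% of all genes, and 15 members were below 100 units, against 12.0% of all genes. As plain counts, 45 members (71.4%) reached 100 units in all arrays, against 85.4% of all genes, and 27 (42.9%) reached the background limit in all arrays, against 54.8%. The median level was 7.67 over members and 8.15 over all genes. By family, 22 of 48 ABC genes (45.8%) and 4 of 15 Slco genes (26.7%) were above the background limit. Solute carriers outside the Slco family had 159 of 364 (43.7%) above it. These shares are descriptions, and the differences between them were not tested.

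**Figure D1:**
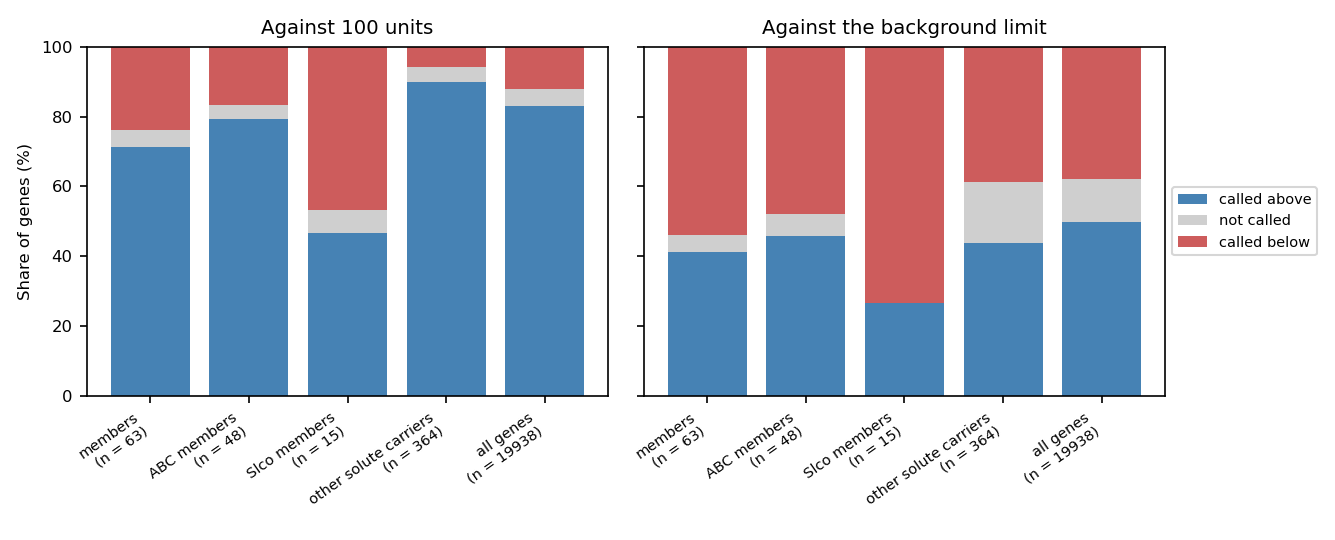
Share of genes (%) called above, not called or called below 100 units (left) and the background limit (right) by limma, for all 63 members, the ABC and Slco members apart, other solute carriers and all genes. The Slco bar has the smallest share called above the background limit of the lists plotted, 26.7%.

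Among the exporters of drugs and conjugates, 7 of 11 were called above the background limit (63.6%, against 49.7% of all genes). Abcg2, the breast cancer resistance protein that exports urate, sulphate conjugates and many drugs, read 11.56, 11.54 and 11.46 in the 3 arrays. Its mean of 11.52 ± 0.049 (SD, n = 3), or 2934 units, was 3.57 ± 0.0625 (SE) above the limit (adjusted p = 2.81e-05). The arrays differed from each other by far less than this distance. Abcc4, an exporter of cyclic nucleotides, urate and prostaglandins, read 9.02, 8.77 and 8.70 (adjusted p = 0.00114), with replicate 1 highest. The means of the endothelial and of the thick ascending limb markers were also highest in replicate 1. What part other cells had in the level of Abcc4 was not tested.

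The other exporters above the limit had the same value in every array. Abcc1, which exports glutathione conjugates and leukotriene C4, stood at 8.80 and Abcc5, which exports nucleotide analogues and cyclic nucleotides, at 8.79. Abcc6, the gene of the calcification disorder pseudoxanthoma elasticum, stood at 8.40 and Abcc10 at 8.26. Abcb1a, the P-glycoprotein of rodent brain capillaries, stood at 8.18, only 0.23 above the limit (adjusted p = 0.0212). For genes with no spread at all the error is likely understated. When such genes were given the typical variance of the array set, Abcb1a (adjusted p = 0.132) and Abcc10 (adjusted p = 0.0839) were no longer called. That left 5 of 11 exporters above the limit, against 9144 of 19938 genes with the same variance.

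Abcc3, a basolateral exporter of glucuronides, read 7.87, 7.87 and 7.78 and was not called on either side. Below the limit were Abcc2, the apical exporter of conjugates in liver and proximal tubule, at a mean of 7.40, Abcc12 at 6.88, and Abcb1b, the other rodent P-glycoprotein, at 6.36. Abcb1b alone in this group was called below 100 units as well.

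**Figure D2:**
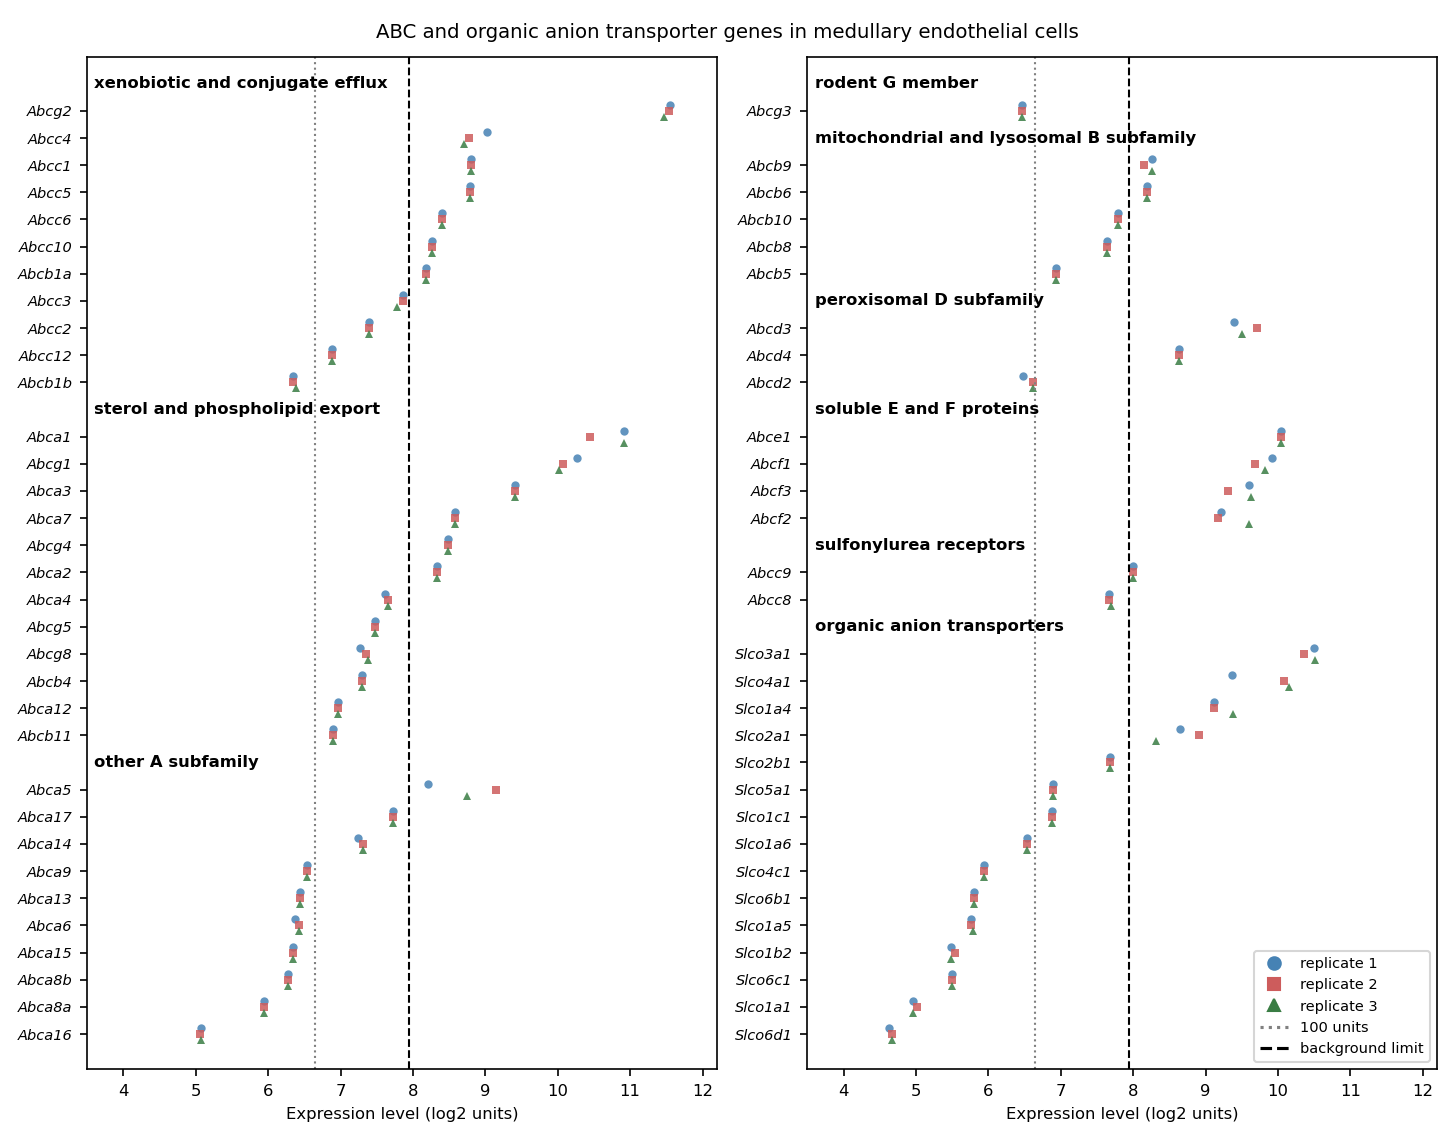
Expression level (log2 units) of all 63 members by role, with a point for each of the 3 arrays, the dotted line at 100 units (6.64) and the dashed line at the background limit (7.95). Abcg2, Abca1 and Slco3a1 lie right of the dashed line in all arrays, while most of the other A subfamily and most Slco genes lie left of it.

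Of the exporters of sterols and phospholipids, 6 of 12 were called above the background limit (against 49.7% of all genes) and 12 of 12 above 100 units. With the typical variance 10 of them were above 100 units, without Abca12 (adjusted p = 0.0713) and Abcb11 (adjusted p = 0.111). Abca1, which loads cholesterol and phospholipid onto apolipoprotein A-I, read 10.91, 10.45 and 10.91 (10.76 ± 0.27, 1735 units, adjusted p = 9.61e-05). Abcg1, which moves sterol to high density lipoprotein, read 10.26, 10.07 and 10.01 (10.12 ± 0.13, adjusted p = 6.12e-05). Every array of both genes was more than 2 log2 units above the limit. Replicate 2 was lowest for Abca1, whereas replicate 1 was highest for Abcg1.

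The remaining genes of this group had no spread. Abca3, known as the lipid pump of surfactant bodies in lung, stood at 9.40 in every array, Abca7, a phospholipid exporter, at 8.59, Abcg4, a sterol exporter known from brain, at 8.49, and Abca2, a late endosomal lipid transporter, at 8.33. Abca2 lost its call with the typical variance (adjusted p = 0.0604). The lipid exporters known from liver canaliculi and gut lay below the limit. These were Abcg5 (7.48) and Abcg8 (7.33), which together form the plant sterol exporter, Abcb4 (7.30), the phosphatidylcholine floppase, and Abcb11 (6.89), the bile salt export pump. Abca4 (7.64), of photoreceptors, and Abca12 (6.97), of skin, were also below it.

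Of the partners of Abca1 and Abcg1, 8 of 11 measured were above the limit (72.7%, against 49.7% of all genes). They included Apoe, a sterol acceptor, with 11.69, 11.61 and 11.89, Scarb1, the receptor for high density lipoprotein, with a mean of 9.76, and Gpihbp1, the capillary anchor of lipoprotein lipase, with 12.01, 11.78 and 11.04. Lcat, which esterifies sterol in lipoprotein, read 8.61, 8.75 and 9.40, and Ch25h, which makes a hydroxylated cholesterol, read 8.54, 10.55 and 9.26. Ch25h was the member of this list with the widest spread (SD 1.02). Apob was below the limit (7.18).

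Of the A subfamily genes outside that group, 1 of 10 was above the background limit (against 49.7% of all genes) and 6 were below 100 units (against 12.0%). Abca5, a lysosomal and late endosomal member, read 8.20, 9.14 and 8.74 (8.70 ± 0.47, adjusted p = 0.0261), the largest SD of any member. Its call was lost without replicate 2 (adjusted p = 0.0747), without replicate 3 (0.111) and with limma's default prior (0.0907) or a prior with a trend on level (0.0889), so only its position above 100 units held in those fits. Its closest relatives were Abca9 (6.54), Abca6 (6.41), Abca8b (6.28) and Abca8a (5.95), all below the limit. The rodent genes of testis were below it too, with Abca17 at 7.73, Abca14 at 7.28, Abca15 at 6.34 and Abca16 at 5.07, as was Abca13 (6.45). With the typical variance Abca17 was not called against the background limit (adjusted p = 0.147), nor Abca13 and Abca15 against 100 units. Abcg3, a rodent relative of Abcg2, read 6.46 and was below both limits, though it was not called against 100 units without replicate 3 (adjusted p = 0.0516) or with the typical variance (adjusted p = 0.182).

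Members of intracellular membranes were mixed. Abcb9, a lysosomal peptide transporter, read 8.27, 8.15 and 8.27, and Abcb6, a transporter linked to porphyrins, stood at 8.20 in every array. Both were called above the background limit, although Abcb6 was not with the typical variance (adjusted p = 0.119). Of the other B members, Abcb10 (7.79), of the inner mitochondrial membrane, was not called, and Abcb8 (7.64), also mitochondrial, was below the limit, a call lost with the typical variance (adjusted p = 0.0863). Abcb5, known from pigment cells, was placed in this group by subfamily only and had 2 probe sets, at 6.94 and 5.60, which lie on different sides of 100 units.

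Peroxisomal Abcd3, a main membrane protein of that organelle, read 9.39, 9.71 and 9.50. Abcd4, which is known to act in lysosomal release of cobalamin, stood at 8.63 in every array. Both were above the background limit, while Abcd2, a carrier of very long chain fatty acids, averaged 6.57 and was below it.

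The soluble proteins were the 1 role group with more than 1 gene whose members were all above the limit, 4 of 4 (against 49.7% of all genes). Abce1, which splits ribosomes after termination, stood at 10.04 in every array. Abcf1, an initiation factor partner, read 9.92, 9.68 and 9.82, and Abcf3 read 9.60, 9.31 and 9.63. Replicate 2 was lowest for both F proteins. Abcf2 read 9.21, 9.18 and 9.61, with replicate 3 highest (9.33 ± 0.24). Neither sulfonylurea receptor passed. Abcc9, the regulatory subunit of the KATP channel known from pericytes and smooth muscle, stood at 8.00 in every array, not separable from the limit (adjusted p = 0.436), and Abcc8, known from beta cells, averaged 7.68 and was below it. Of the 7 pericyte and smooth muscle markers 3 were called below the limit and 4 on neither side, among them Cspg4 (8.01, 8.01 and 8.04). With the typical variance the 3 calls below were lost, for Acta2 (adjusted p = 0.0607), Pdgfrb (adjusted p = 0.0608) and Cnn1 (adjusted p = 0.0891).

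Of the 15 organic anion transporters, 4 were above the background limit (against 49.7% of all genes) and 11 below it (against 38.0%). Slco3a1, a broadly expressed carrier of prostaglandins and thyroxine, read 10.49, 10.36 and 10.51 (10.46 ± 0.082, 1405 units, adjusted p = 3.47e-05). Slco4a1, a broad carrier of thyroid hormone and taurocholate, read 9.36, 10.09 and 10.16 (9.87 ± 0.44, adjusted p = 0.00103). Replicate 1 was the low array for Slco4a1 while Slco3a1 held close in all arrays. Slco1a4, the carrier of digoxin and conjugated steroids known from brain capillaries and liver, read 9.12, 9.12 and 9.38 (adjusted p = 0.000299). The study picked Slco1a4 as a medullary gene on these same samples, so its position is not independent evidence.

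Slco2a1, the prostaglandin transporter, read 8.64, 8.91 and 8.32 (8.62 ± 0.30, adjusted p = 0.0104). Every array was above the limit, but without replicate 1 the call was lost (adjusted p = 0.06). Among genes of prostaglandin handling, 7 of 12 measured were above the limit (58.3%, against 49.7% of all genes). Hpgd, the enzyme that inactivates prostaglandins after uptake, read 9.02, 10.90 and 10.18, with replicate 2 highest as for Slco2a1 and replicate 1 lowest. Ptgis, prostacyclin synthase, stood at 8.51 in every array, and Ptgs2, the inducible cyclooxygenase, averaged 6.89 and was below the limit.

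Of the other Slco genes, those called between the limits were Slco2b1, a steroid sulphate carrier, at 7.67, Slco5a1 at 6.89 and Slco1c1, the thyroxine carrier of brain barriers, at 6.88. With the typical variance Slco2b1 was no longer called against the background limit (adjusted p = 0.104) nor Slco5a1 against 100 units (adjusted p = 0.115). Slco1a6 (6.53) was not called against 100 units. Called below 100 units were Slco4c1 (5.94), known from the basolateral membrane of the proximal tubule, Slco1a1 (4.98), known from liver and the proximal tubule brush border, Slco1b2 (5.50), of liver, Slco1a5 (5.77), and the Slco6 genes known from testis, Slco6b1 (5.80), Slco6c1 (5.49) and Slco6d1 (4.66). The tubule carriers Slco1a1 and Slco4c1 were therefore below 100 units, beside proximal tubule markers of which Cubn (6.30) and Slc13a1 (5.39) were also low, but Slc34a1 (8.40) and Slc5a2 (8.41) were above the background limit.

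The deposited values had little spread between arrays for most members. The same value stood in all arrays for 34 members (54.0%), against 46.3% of all genes, and an SD over 0.1 was found for 11 members (17.5%), against 22.5% of all genes. Since RMA can hide differences between arrays, identical values do not show that the samples were equally alike. The 5 largest SDs belonged to Abca5, Slco4a1, Slco2a1, Abca1 and Abcf2. Their high and low arrays differed, with replicate 1 lowest for Abca5 and Slco4a1, replicate 2 lowest for Abca1 and Abcf2 and replicate 3 lowest for Slco2a1. Over all members, replicate 1 was the lowest array for 10 and the highest for 4, replicate 2 the lowest for 7 and the highest for 5, and replicate 3 the lowest for 5 and the highest for 10. This was not tested.

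**Figure D3:**
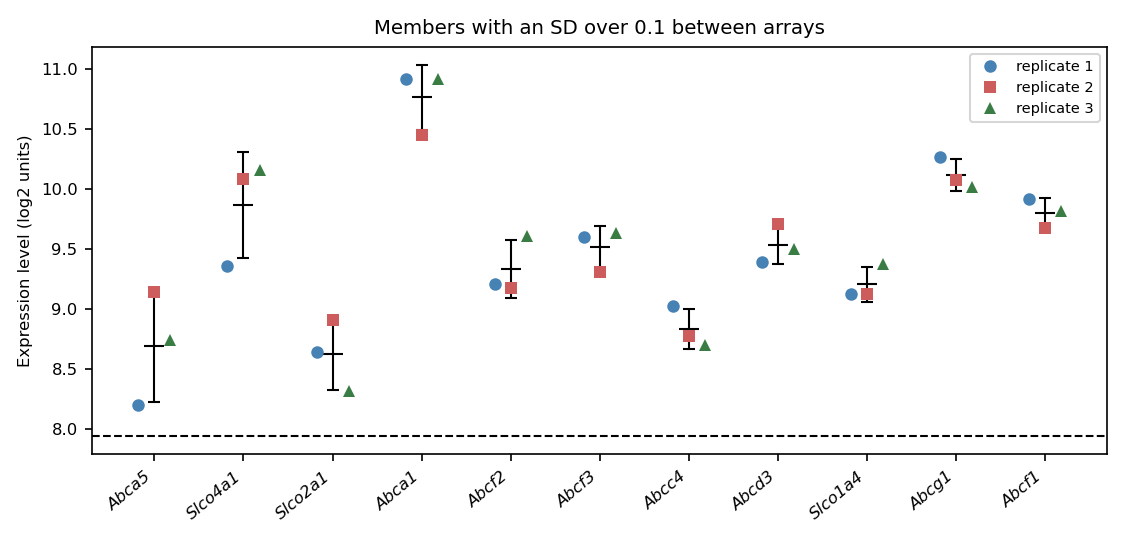
Levels (log2 units) of the 11 members with an SD over 0.1, a coloured point per array, with the mean as a dash and bars of 1 SD. All points lie above the dashed background limit (7.95), and the arrays that are high or low differ from gene to gene, as for Abca5 with 8.20, 9.14 and 8.74.

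Some members are neighbours with no other protein-coding gene between them in RefSeq, 23 of them in 9 runs, and calls changed inside 4 runs. On chromosome 5 Abcb1a (8.18) lay above the background limit, while Abcb1b (6.36) and Abcb4 (7.30) next to it were below. On chromosome 6 Slco1a4 (9.21) was above and its neighbour Slco1a1 (4.98) below. On chromosome 11 Abca5 (8.70) was above and the run of Abca6, Abca9, Abca8a and Abca8b below, and on chromosome 17 Abca3 (9.40) was above and Abca17 (7.73) below. In the other runs, such as Abcg5 with Abcg8 and Abca14 with Abca15 and Abca16, all genes were below. The split between Slco1a4 and Slco1a1 stood with the typical variance, while Abcb1a (adjusted p = 0.132) and Abca17 (adjusted p = 0.147) then had no call and Abca5 lost its own in the fits named above. How far probes of such close relatives share sequence was not tested.

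**Figure D4:**
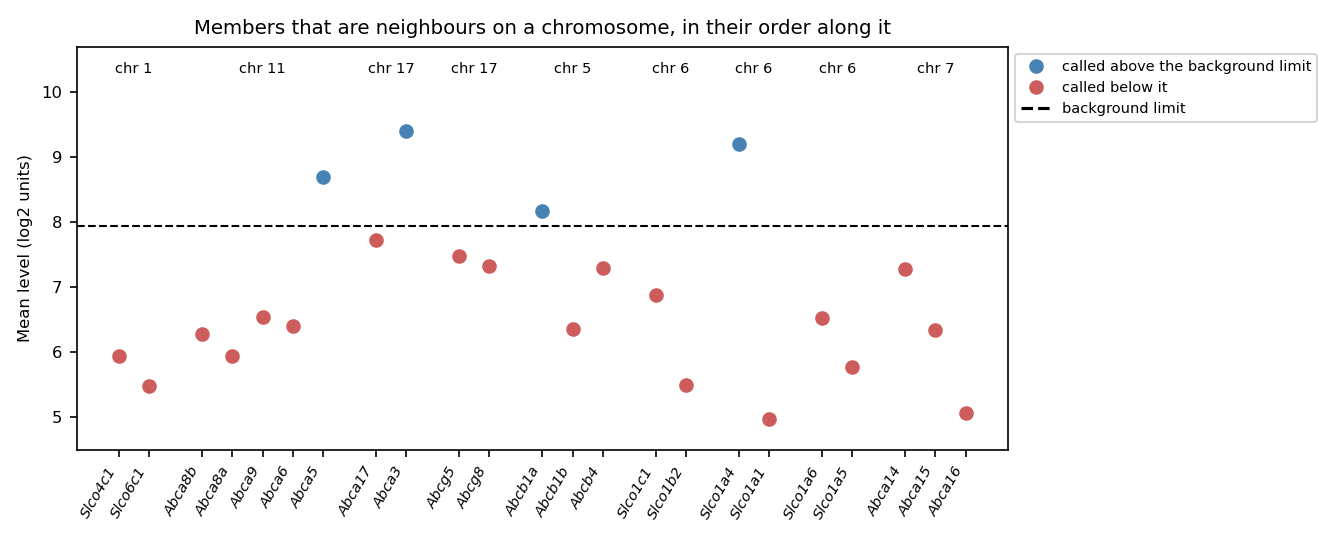
Mean level (log2 units) of the 23 members that neighbour another member, in their order along each chromosome, blue where called above the background limit (dashed line, 7.95) and red where called below. In 4 of the 9 runs 1 gene is blue and the rest are red, for example Slco1a4 at 9.21 beside Slco1a1 at 4.98, but the calls of Abcb1a, Abca17 and Abca5 in the other 3 were lost in some fits.

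Promoters of members were taken from RefSeq (GRCm38.p6), with 250 bases before and 50 after each annotated start. Of the 63 members 51 matched, with 62 promoters. The next sequences set members above the limit with many CG pairs (Abcg2, with the start of most CG pairs among its 3 starts, and Abca1) beside members above it with few (Abcb1a, Slco1a4) and the neighbours of Abcb1a and Slco1a4, which are below it (Abcb1b, Slco1a1). Capitals mark each match, on either strand, of the GC box GGGCGG, the TATA form TATAAA, the XRE core GCGTG or the ARE form TGACNNNGC, of which none overlaps another in these sequences.
Abcg2, chr6:58640296-58640595, plus strand: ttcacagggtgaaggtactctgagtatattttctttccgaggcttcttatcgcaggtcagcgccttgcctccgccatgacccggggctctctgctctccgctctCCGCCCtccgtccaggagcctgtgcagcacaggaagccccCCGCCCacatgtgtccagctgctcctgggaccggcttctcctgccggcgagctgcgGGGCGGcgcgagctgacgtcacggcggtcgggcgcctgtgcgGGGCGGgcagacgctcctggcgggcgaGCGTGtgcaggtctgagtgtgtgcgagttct
Abca1, chr4:53159846-53160145, minus strand: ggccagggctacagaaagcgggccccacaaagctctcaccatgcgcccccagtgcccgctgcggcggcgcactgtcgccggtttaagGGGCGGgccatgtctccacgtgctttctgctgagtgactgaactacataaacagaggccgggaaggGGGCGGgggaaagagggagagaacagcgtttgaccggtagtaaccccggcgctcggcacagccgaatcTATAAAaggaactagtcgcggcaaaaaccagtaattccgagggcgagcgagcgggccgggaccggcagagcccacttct
Abcb1a, chr5:8566841-8567140, plus strand: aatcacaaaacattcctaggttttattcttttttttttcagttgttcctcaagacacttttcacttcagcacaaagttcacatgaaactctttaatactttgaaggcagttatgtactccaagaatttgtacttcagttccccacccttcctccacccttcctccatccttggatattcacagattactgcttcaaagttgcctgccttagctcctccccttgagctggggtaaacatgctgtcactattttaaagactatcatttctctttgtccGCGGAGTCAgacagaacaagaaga
Abcb1b, chr5:8797897-8798196, plus strand: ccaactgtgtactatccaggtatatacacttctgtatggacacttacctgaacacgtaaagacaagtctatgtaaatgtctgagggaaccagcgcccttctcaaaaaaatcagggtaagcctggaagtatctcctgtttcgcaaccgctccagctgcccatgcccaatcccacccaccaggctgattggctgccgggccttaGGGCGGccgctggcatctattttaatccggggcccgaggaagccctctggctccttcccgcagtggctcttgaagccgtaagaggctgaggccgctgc
Slco1a4, chr6:141856171-141856470, minus strand: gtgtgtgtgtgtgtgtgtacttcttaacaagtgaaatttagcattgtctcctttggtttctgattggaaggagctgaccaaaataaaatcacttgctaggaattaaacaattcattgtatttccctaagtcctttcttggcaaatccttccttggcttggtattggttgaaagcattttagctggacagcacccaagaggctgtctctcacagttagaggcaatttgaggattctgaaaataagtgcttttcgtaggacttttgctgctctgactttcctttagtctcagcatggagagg
Slco1a1, chr6:141946913-141947212, minus strand: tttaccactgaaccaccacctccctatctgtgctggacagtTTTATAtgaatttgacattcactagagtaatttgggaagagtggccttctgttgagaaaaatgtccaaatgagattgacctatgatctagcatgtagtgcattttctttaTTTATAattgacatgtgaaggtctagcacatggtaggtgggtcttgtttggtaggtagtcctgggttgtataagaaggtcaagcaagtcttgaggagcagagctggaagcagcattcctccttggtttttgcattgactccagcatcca

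This Abcg2 promoter held 28 CG pairs and 4 GC boxes, and its other starts held 10 and 3 CG pairs. The Abca1 promoter held 26 CG pairs, 2 GC boxes and 1 TATA form. Abcb1a and Slco1a4 had few, with 2 and 1 CG pairs and no GC box, although both were called above the limit. Abcb1b, below the limit, had 12 CG pairs and 1 GC box, and Slco1a1, also below, had none of either but 2 TATA forms. A match of letters is not a binding site, and no match says only that the letters are not in this window.

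Over all members with a promoter, those above the background limit had a median of 24 CG pairs (27 promoters) and those below it 6 (33 promoters), against 7 over all 32851 promoters. At least 10 CG pairs stood in 77.8% of promoters of members above and 30.3% of those below, against 43.5% of all. GC boxes were found in 66.7% and 15.2%, against 35.7% of all promoters, and TATA forms in 18.5% and 24.2%, against 13.6%. The XRE core, known as the site of the dioxin receptor Ahr, was found in 40.7% and 21.2%, against 32.4%, and the ARE form, known for Nfe2l2, in 18.5% and 15.2%, against 12.4%. The order of CG pairs was the same over all genes of the array, with medians of 20 above the limit and 5 below it. Over those array genes GC boxes stood in 62.5% of promoters above and 29.2% of those below, TATA forms in 7.2% and 18.8%, XRE cores in 5033 of 10067 promoters above and 27.6% of those below, and ARE forms in 14.1% and 11.7%. The share with an XRE core was thus lower, and that with a TATA form higher, in members above the limit than in array genes above it, differences that were not tested.

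**Figure D5:**
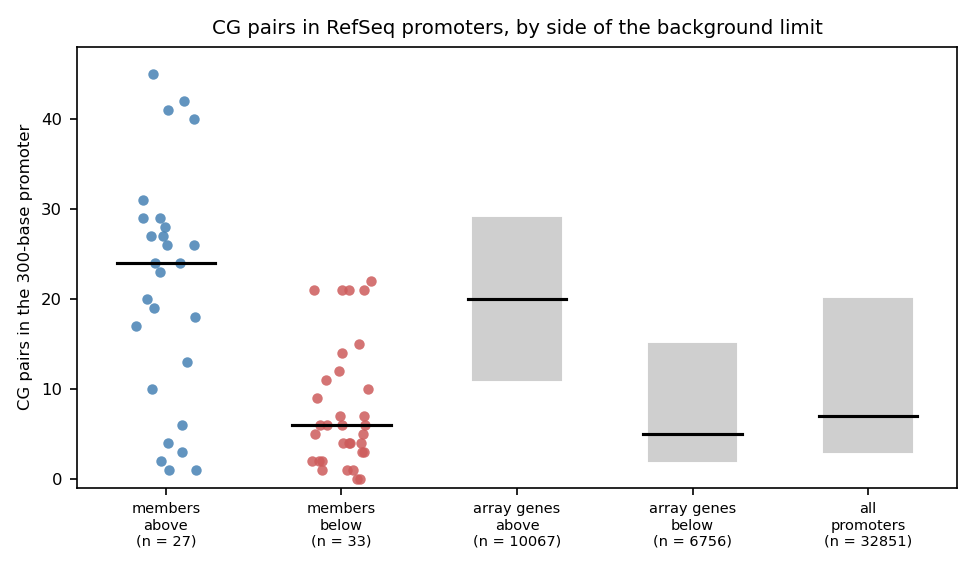
CG pairs per 300-base RefSeq promoter for members called above or below the background limit (a point per promoter, line at the median), beside the interquartile range and median for all genes of the array above and below it and for all promoters. Members above the limit have a median of 24 and members below it 6, and the array genes show the same order with 20 and 5.

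Regulators known to act on transporter genes were above the limit for 9 of 15 measured (against 49.7% of all genes), a difference that was not tested. Nfe2l2, the oxidant response factor, read 11.77, 11.77 and 11.92, Pparg, a lipid sensing receptor that raises Abca1 and Abcg1 in macrophages, read 11.53, 11.42 and 11.05, and Ahr read 9.30, 9.06 and 9.00. These were well clear of the limit in every array. The xenobiotic receptors of liver, Nr1i2 (7.35) and Nr1i3 (7.64), and the bile acid receptor Nr1h4 (7.05) were below it, and the sterol receptor Nr1h3 (7.79) was not called.

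Of enzymes that oxidise or conjugate transporter substrates, 5 of 9 measured were above the limit (55.6%, against 49.7% of all genes). Among them were Gstp1 with 11.85, 12.57 and 11.78 and Ephx1 with a mean of 11.29. Cyp1a1, a target of Ahr, averaged 7.03 and was below the limit. Other organic ion transporters were above it for 5 of 13 measured (38.5%), including the carnitine transporter Slc22a5 (9.19) and the peptide transporter Slc15a2 (9.00). Of the ABC genes without the Abc prefix, the antigen peptide transporters Tap1 (8.75, 9.41 and 8.97) and Tap2 (9.00) were above and the chloride channel Cftr (5.85) below. Of 15 genes known from brain capillaries 7 were called above the limit (46.7%, against 49.7% of all genes), namely Abcb1a, Abcg2, Abcc4 and Slco1a4 with Slc2a1 (10.39), the glucose carrier, the junction gene Cldn5 (9.84) and Lef1 (9.15), whereas 6 were called below, Slco1c1, Slco2b1, Mfsd2a (7.72), Ocln (7.15), Slc16a1 (7.27) and Tfrc (7.28). With the typical variance 6 were above and 4 below, as Abcb1a, Slco2b1 and Mfsd2a (limma adjusted p = 0.139) then had no call.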

How the data were processed

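RNA of sorted endothelial cells from 3 medullary samples was amplified in 1 round with the NuGEN WT-Ovation Pico system and read on 1-colour arrays. Each deposited value is the log2 level of a probe set, made by the authors with Affymetrix Expression Console, and the study names RMA with GeneSpring. The log2 scale was inferred from the values. RMA evens out arrays, which can hide differences between them, and array medians differed by at most 0.027. Of 35557 probe sets, 21789 named 1 gene, and 21698 of these were updated to RefSeq symbols of GRCm38.p6 through Entrez identifiers. Since no source used here names the build of the files, the only coordinates given are those of the RefSeq promoters, in GRCm38.p6.

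limma 3.58.1 (R 4.3.3) was fitted with an intercept only on level minus limit, two-sided, with Benjamini-Hochberg adjustment over 19938 genes and a threshold of 0.05. The prior variance came from genes with 3 different values. A trial of the fit with made-up values is not counted here as evidence for the calls of genes without spread. The typical variance in the text is this prior given alone to genes without spread, an alternative chosen after seeing the data. Alternatives changed limits, prior, probe set rule, normalization and filter, and left out replicates. Every member is named, with all arrays for those above the background limit, for the 5 largest SDs and for Slco1a4. The members, lists and tests were chosen with earlier results of these data known. P-values rest on the spread between these pools together with the prior variance, and 3 arrays limit the precision. For the 34 members with the same value in all arrays, the main fit weighted the prior variance together with a spread of 0. Their error was therefore smaller than the prior alone would give, and their p-values measure no spread seen between arrays. Protein sequence was not used here. Python 3.11.15 with numpy 2.4.6, pandas 2.3.3 and matplotlib 3.10.9 was used for counts and figures.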

Additional observations from a re-analysis of the deposited data

How the results depend on the processing

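The side of a limit depends most on the limit chosen. With 50 units in place of 100, 56 members were called above and 3 below, and with 200 units 28 were above and 28 below. With the 99th percentile of receptor probe sets (log2 8.72) 12 members were called above and 14 reached it in all arrays. Shares of all genes at these moved limits are not given, so the counts do not set members apart from the array. Leaving out each replicate gave 45 members above and 14 to 15 below 100 units, 25 above and 34 below the background limit, and 45 and 27 members at these limits in all arrays. Abcb5 turned from above to below 100 units with the mean of its probe sets (-0.38, limma adjusted p = 0.00308) and with the lowest (-1.04, adjusted p = 0.000117). With the prior variance alone for genes without spread, 22 of 63 members were above the background limit, against 9144 of 19938 genes. Over 12 settings that kept the definition of the limits, 1469 of 1502 single-gene values kept their direction and side of the threshold. Of the rest, 10 gained a call, 21 lost one and 2 reversed. In the added normalizations the background limit was taken again from the normalized values, so it could move with them. Some of these settings could change little. The probe set rules could move the level of Abcb5 alone among members, and the arrays differed little in median before the added normalizations. No paired analysis was possible because the arrays form 1 group. Genes near a limit cannot be placed with 3 arrays, and signal over background per probe was not examined here.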
